A study of Mus musculus with 4 samples.

Results

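Transcripts of 9 matrix glycoprotein genes, those of 8 matricellular proteins and of fibronectin, were followed in mouse pancreas libraries labelled as ducts. The genes were Thbs1, Thbs2, Thbs3, Tnc, Sparc, Sparcl1, Postn, Spp1 and Fn1. They were taken by gene name from the 52535 gene models of the count files, and all 9 were found and passed the filter on low counts. The libraries labelled Lats1/2 KO came from C57BL/6 mice of the genotype Lats1fl/fl; Lats2fl/fl; Sox9-CreER, and the WT libraries from C57BL/6 mice labelled wild type, with 2 libraries in each group. Lats1 and Lats2 are the kinases that hold back the co-activators YAP and TAZ, and Sox9-CreER is a Cre recombinase that tamoxifen switches on in cells that express Sox9, which in the adult pancreas are mainly duct cells. The series has no group that carries Sox9-CreER without floxed alleles. The sources used here do not give the age of the animals, the tamoxifen schedule or how the ducts were obtained. The comparison asks how these secreted proteins' transcripts differ in such libraries when both kinases are targeted. The libraries also held RNA of other cell types, given below, so a difference cannot be placed in duct cells alone.

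Matricellular proteins are secreted into the extracellular matrix, where they act less as scaffold than as signals: they bind integrins, CD44, CD36 or CD47 on cells and hold growth factors, latent TGF-beta among them. They are scarce in most adult tissues and are made during development, wound repair, fibrosis and in the stroma of pancreatic tumours. Fibronectin is a structural glycoprotein to which several of them attach, and in the pancreas osteopontin (Spp1) is known both as a duct product and as a product of macrophages.

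All 9 genes rose in the libraries labelled Lats1/2 KO, by 2.84-fold (Sparcl1) to 14.4-fold (Fn1), and 0 fell (edgeR's quasi-likelihood test, Benjamini-Hochberg adjusted p under 0.05). Of all 13990 genes tested, 22.0% were called higher and 20.2% lower. The members' median log2 fold change was 2.61, against -0.01 over all genes tested. In all 9 genes both libraries labelled Lats1/2 KO stood above both WT libraries, an order found in 37.4% of all genes tested. Together the 9 genes took 2.59% and 2.48% of all counts in the libraries labelled Lats1/2 KO, against 0.332% and 0.278% in the WT libraries.

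Library totals were 5082636 and 5925601 counts in replicates 1 and 2 labelled Lats1/2 KO, and 3566387 and 4735183 counts in WT replicates 1 and 2. The targeted genes did not check the labels: Lats1 stood at 70.0 and 79.2 CPM (counts scaled to library size, with TMM factors) in the libraries labelled Lats1/2 KO, against 50.8 and 65.6 CPM in WT. Lats2 stood at 163 and 121 CPM in the libraries labelled Lats1/2 KO, against 114 and 102 CPM in WT. Neither was lower in the libraries labelled Lats1/2 KO (edgeR adjusted p = 0.172 and 0.127), Lats2 was called higher without Lats1/2 KO replicate 2 (adjusted p = 0.036), and whole-model counts include transcripts that lack only some exons, so every direction below rests on the labels. Xist, a transcript of female cells, had 852 and 838 counts in the libraries labelled Lats1/2 KO, against 362 and 0 in WT, so the groups were not matched for sex. The labels do not say that replicates were separate animals. The WT libraries differed in Xist, so they were not made from the same sample, and their spread includes a difference in sex. In the pair labelled Lats1/2 KO the spread may be technical. The p-values measure only the spread between these libraries.

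Promoter sequence was available for 6 of the 9 genes (Thbs2, Thbs3, Tnc, Sparc, Postn and Spp1), as 9 RefSeq windows of GRCm38.p6 that run from 250 bases before to 50 after an annotated start. The study's title names YAP and AP-1, which reach DNA through TEAD factors and through FOS and JUN proteins. The windows were therefore searched on both strands for CATTCC, the core letters bound by TEAD factors, and for TGANTCA, the core letters bound by AP-1. Of the 9 windows 0 held either motif, which are found in 14.7% and 7.81% of the 32851 mouse promoter windows and in 12.3% and 5.48% of those of tested genes. This says only that these letters are not in these windows. The 250 bases before the start are shown for Thbs2, Tnc, Postn and Spp1, which belong to different protein families and all rose. They are written 5′ to 3′ on the gene's strand, at chr17:14694263-14694512 (minus strand), chr4:64047016-64047265 (minus strand), chr3:54360857-54361106 (plus strand) and chr5:104434861-104435110 (plus strand). Capitals mark the letters of a TATA box, TATAAA, and of a CCAAT box on either strand.
Thbs2: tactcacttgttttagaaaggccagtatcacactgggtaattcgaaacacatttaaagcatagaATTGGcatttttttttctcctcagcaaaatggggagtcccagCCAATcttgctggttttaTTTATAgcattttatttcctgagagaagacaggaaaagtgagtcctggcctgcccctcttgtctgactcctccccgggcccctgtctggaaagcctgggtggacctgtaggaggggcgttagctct
Tnc: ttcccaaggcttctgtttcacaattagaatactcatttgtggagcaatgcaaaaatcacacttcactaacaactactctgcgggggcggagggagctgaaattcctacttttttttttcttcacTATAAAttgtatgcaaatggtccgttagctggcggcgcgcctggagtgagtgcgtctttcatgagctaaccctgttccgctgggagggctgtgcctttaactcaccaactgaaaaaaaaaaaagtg
Postn: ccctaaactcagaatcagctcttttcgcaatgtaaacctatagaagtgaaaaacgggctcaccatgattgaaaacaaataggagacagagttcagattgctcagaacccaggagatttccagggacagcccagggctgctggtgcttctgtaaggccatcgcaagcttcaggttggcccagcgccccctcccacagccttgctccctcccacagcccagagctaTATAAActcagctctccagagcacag
Spp1: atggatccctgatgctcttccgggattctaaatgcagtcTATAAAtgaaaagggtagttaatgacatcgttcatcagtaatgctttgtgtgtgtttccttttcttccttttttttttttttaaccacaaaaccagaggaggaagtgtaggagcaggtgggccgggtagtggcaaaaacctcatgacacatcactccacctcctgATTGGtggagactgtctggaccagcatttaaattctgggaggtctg
Both boxes were searched after the members' values were known, and no marked letters overlap. TATAAA is found in 13.6% of all windows and CCAAT in 37.4%, and in 7.71% and 36.8% of the 13247 windows of genes that were tested. Tnc, Postn and Spp1 each have 2 annotated starts, and distances are from the start next to the printed bases. In Postn the TATAAA begins 26 bases before that start, while in Tnc and Spp1 it begins 126 and 211 bases before it. The same Tnc letters lie 205 bases before the other Tnc start, and the windows at the other Postn and Spp1 starts hold no TATAAA. Only these exact letters were searched. Close variants were neither marked nor counted in any gene. Among them are tatataag in the 250 bases before the other Tnc start, and tttaaa in the printed bases of Thbs2 and Spp1. Thbs2 holds the CCAAT letters 186 and 144 bases before the start and the TATAAA letters on the other strand 126 before it. Spp1 holds the CCAAT letters on the other strand 46 bases before its start. Whether any of these letters act as a box was not tested.

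Fibronectin (Fn1, mm10 chromosome 1, 71585520 to 71653200, minus strand) forms the fibrils on which other matrix proteins are laid down. It had 10836 and 8231 CPM in the libraries labelled Lats1/2 KO, against 820 and 508 CPM in WT, and the groups lay far apart. It averaged 9534 ± 1842 CPM in the libraries labelled Lats1/2 KO and 664 ± 220 CPM in WT (SD, n = 2 each). The log2 fold change was 3.84 ± 0.31 SE (edgeR adjusted p = 5.21e-05), the largest of the 9 and the 152nd largest rise of all genes tested. By CPM, Fn1 was the 2nd most counted of the tested genes in the libraries labelled Lats1/2 KO and the 172nd in WT. It alone made up 40.9% and 34.7% of the 9 genes' counts in the libraries labelled Lats1/2 KO, against 25.2% and 17.2% in WT.

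**Figure D1:**
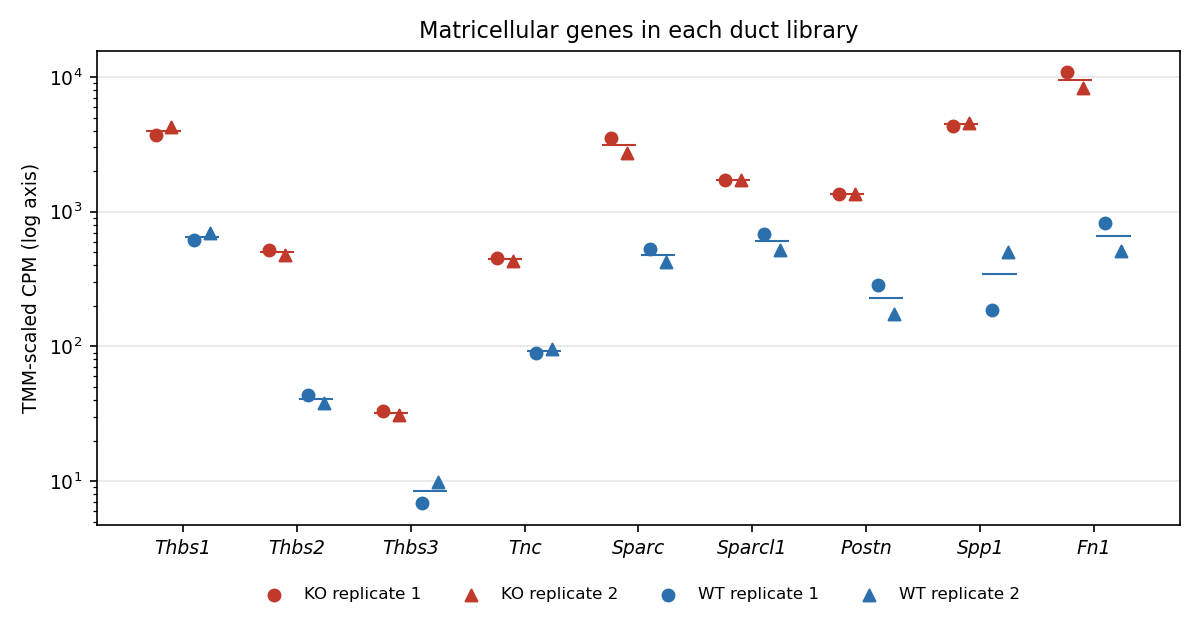
TMM-scaled CPM (log axis) of the 9 genes in each library, with libraries labelled Lats1/2 KO in red to the left and WT libraries in blue to the right; circles are replicate 1, triangles replicate 2 and lines the group means. In every gene both red points lie above both blue points, and the widest spread within a group is that of Spp1 in WT, 187 and 501 CPM.

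The 3 thrombospondins, secreted multimers that bind CD36, CD47 and integrins, rose by different amounts. Thbs1 (chromosome 2, 118111876 to 118127133, plus strand) can activate latent TGF-beta and is a known YAP target in several cell types. It had 3736 and 4231 CPM in the libraries labelled Lats1/2 KO, against 614 and 693 CPM in WT, with each group tight and no overlap. Its log2 fold change was 2.61 ± 0.21 SE (edgeR adjusted p = 5.33e-05), a 6.09-fold rise. Thbs1 is also a major granule protein of platelets, and the 8 platelet and megakaryocyte markers summed to 18.7 and 11.3 CPM in the libraries labelled Lats1/2 KO and to 16.2 and 21.4 CPM in WT. Only 2 of the 8 had enough counts to be tested. Itga2b fell, to 3.22 and 3.56 CPM in the libraries labelled Lats1/2 KO against 11.8 and 15.1 CPM in WT. Pf4 did not pass, at 9.66 and 5.02 CPM in the libraries labelled Lats1/2 KO against 3.30 and 4.27 CPM in WT.

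Thbs2 (chromosome 17, 14665500 to 14694262, minus strand), a trimer like Thbs1 and an inhibitor of angiogenesis, stood far lower but rose more steeply. It had 521 and 480 CPM in the libraries labelled Lats1/2 KO, against 43.7 and 37.8 CPM in WT. The log2 fold change was 3.62 ± 0.18 SE (edgeR adjusted p = 1.18e-05), a 12.3-fold rise, and its p-value ranked 16th of all genes tested. Thbs3 (chromosome 3, 89215180 to 89226837, plus strand), which forms pentamers and is less studied, was the least abundant of the 9. It had 33.2 and 30.9 CPM (165 and 191 counts) in the libraries labelled Lats1/2 KO, against 6.87 and 9.89 CPM (25 and 44 counts) in WT. Its log2 fold change was 1.92 ± 0.27 SE (edgeR adjusted p = 0.000815). The Mtx1 model spans all of Thbs3 on the opposite strand and shares 318 exon bases with it. Mtx1 had 77 and 108 counts in the libraries labelled Lats1/2 KO and 40 and 47 in WT, and, as the authors' use of strand is not stated, reads of the shared bases cannot be told apart.

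SPARC and its relative SPARC-like 1 bind collagen and calcium and counter cell adhesion. Sparc (chromosome 11, 55394500 to 55423183, minus strand), a standard product of stellate cells and tumour stroma that is also made by endothelial cells, had 3532 and 2723 CPM in the libraries labelled Lats1/2 KO. In WT it had 531 and 420 CPM. The groups did not overlap, and the log2 fold change was 2.72 ± 0.24 SE (edgeR adjusted p = 7.44e-05). Sparcl1 (chromosome 5, 104079111 to 104113733, minus strand), often expressed in vessel walls, had 1707 and 1712 CPM in the libraries labelled Lats1/2 KO, against 679 and 523 CPM in WT. Its log2 fold change of 1.51 ± 0.20 SE was the smallest of the 9 (edgeR adjusted p = 0.000629).

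The order of this pair differed between the groups. Per kilobase of exon, the ratio of Sparc to Sparcl1 was 1.60 and 1.23 in the libraries labelled Lats1/2 KO, against 0.607 and 0.623 in WT. With these exon lengths, Sparc was the higher of the pair in both libraries labelled Lats1/2 KO, and Sparcl1 in both WT libraries. With 2 libraries a group an exact two-sided permutation test of such a ratio cannot give a p below 0.333, so none is given. Thbs1 exceeded Thbs2 per kilobase 8.27-fold and 10.2-fold in the libraries labelled Lats1/2 KO, against 16.2-fold and 21.2-fold in WT, so Thbs1 stayed the higher of that pair in all 4 libraries.

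Tenascin C (Tnc, chromosome 4, 63959785 to 64047015, minus strand), a many-armed glycoprotein of wounds and tumour stroma, had 453 and 433 CPM in the libraries labelled Lats1/2 KO, against 89.9 and 95.7 CPM in WT. Replicates of both groups lay close together, and the log2 fold change was 2.25 ± 0.16 SE (edgeR adjusted p = 2.92e-05). Periostin (Postn, chromosome 3, 54361109 to 54391037, plus strand), a fasciclin-domain protein that links tenascin C, fibronectin and collagen and is a marker of activated fibroblasts, had 1347 and 1353 CPM in the libraries labelled Lats1/2 KO. In WT it had 286 and 173 CPM, and the log2 fold change was 2.55 ± 0.26 SE (edgeR adjusted p = 0.00014). The libraries labelled Lats1/2 KO were nearly equal for Postn, while the WT libraries differed 1.65-fold.

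Osteopontin (Spp1, chromosome 5, 104435118 to 104441050, plus strand), a phosphoprotein that binds integrins and CD44, had 4332 and 4555 CPM in the libraries labelled Lats1/2 KO, against 187 and 501 CPM in WT. The WT libraries differed 2.67-fold, the widest gap within a group among the 9 genes, and still did not reach the lower library labelled Lats1/2 KO. The log2 fold change was 3.69 ± 0.52 SE (edgeR adjusted p = 0.00397). Spp1 did not pass when either library labelled Lats1/2 KO was left out (adjusted p = 0.199 without replicate 1 and 0.214 without replicate 2), and its log2 fold change was 4.57 without WT replicate 2. The other 8 genes passed with every library left out in turn.

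**Figure D2:**
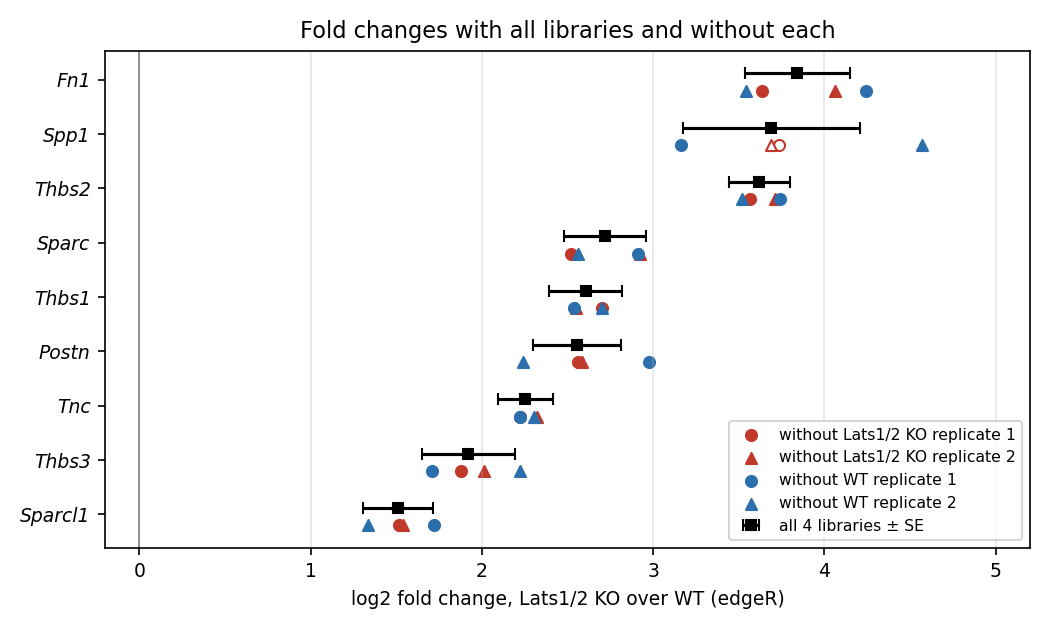
Log2 fold change (libraries labelled Lats1/2 KO over WT, edgeR) of each gene with all 4 libraries (black squares, bars are ± SE) and with 1 library left out (coloured marks, filled where the adjusted p was under 0.05 and open otherwise). Fn1, Spp1 and Thbs2 form the upper group at 3.84, 3.69 and 3.62, Sparcl1 is lowest at 1.51, and the open marks belong to Spp1.

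Levels of different genes were compared as CPM per kilobase of exon. The length joins all annotated exons of a gene and can exceed that of any single transcript, so the order between genes depends on it. It was 8702 bases from 9 annotated transcripts for Postn and 2937 bases from 2 for Sparcl1. In the libraries labelled Lats1/2 KO Spp1 was highest at 2696 ± 95.4, which placed it 4th of the 13746 tested genes with a known exon length. Sparc (826 ± 151) and Fn1 (816 ± 158) followed and did not differ beyond their spread. Thbs1 (656 ± 57.7) and Sparcl1 (582 ± 1.26) came next, then Postn (155 ± 0.50), Thbs2 (71.5 ± 4.13), Tnc (57.0 ± 1.86) and Thbs3 (6.65 ± 0.34, all SD, n = 2). In WT the order per kilobase was Spp1 (209 ± 134), Sparcl1 (205 ± 37.4), Sparc (126 ± 20.7), Thbs1 (108 ± 9.22), Fn1 (56.8 ± 18.9), Postn (26.4 ± 9.19), Tnc (11.9 ± 0.54), Thbs2 (5.82 ± 0.60) and Thbs3 (1.74 ± 0.44). There Spp1, at 114 and 304 per kilobase, overlapped Sparcl1, Sparc and Thbs1, and it was highest in WT replicate 2 only, lying below Sparcl1 and Sparc in WT replicate 1. Sparc and Thbs1 overlapped as well. Fn1 was 37th per kilobase in the libraries labelled Lats1/2 KO and 606th in WT, and Thbs2 was 564th and 6167th.

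**Figure D3:**
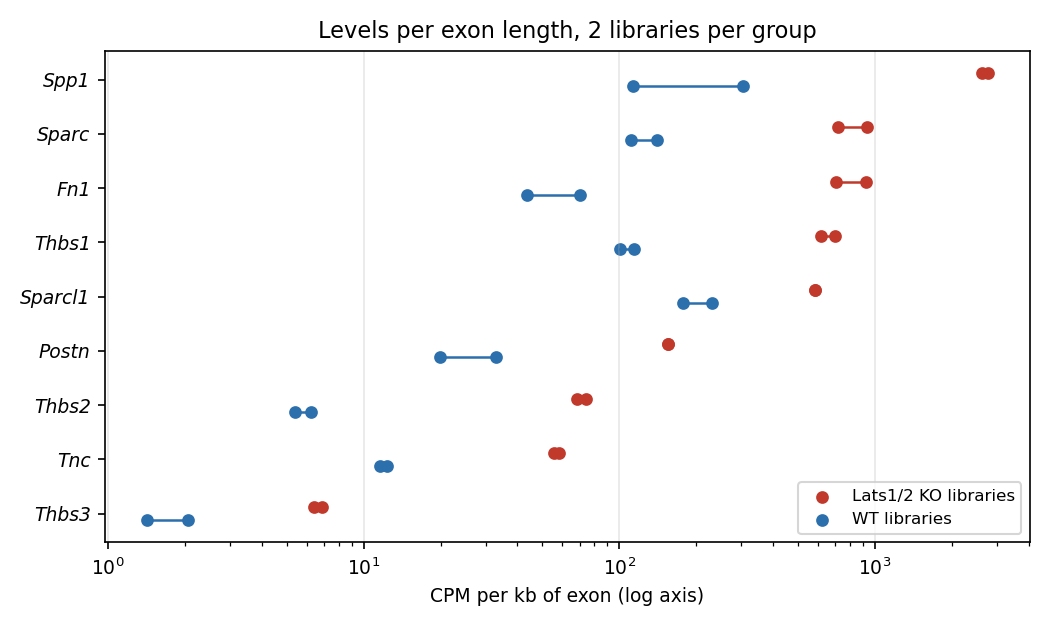
CPM per kilobase of exon (log axis) of the 9 genes, ordered by their mean in the libraries labelled Lats1/2 KO; red points are the 2 libraries labelled Lats1/2 KO, blue points the 2 WT libraries, and lines join replicates. Sparc and Fn1 overlap in red, Spp1 and Sparcl1 overlap in blue, and for each gene red lies to the right of blue.

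Genes related to the 9 by family or function were taken from 4 lists. Of 38 tested other matricellular and related secreted matrix proteins (43 listed), 20 rose, 7 fell and 11 did not pass, with a median log2 fold change of 1.32. The shares of higher and lower calls are to be read against the 22.0% and 20.2% of all genes tested. Split by gene family, after the values were known, both other thrombospondins, Thbs4 and Comp, rose. Thbs4 had 47.7 and 80.6 CPM in the libraries labelled Lats1/2 KO, against 32.4 and 19.1 CPM in WT. Comp rose at low counts, 18 and 14 in the libraries labelled Lats1/2 KO against 3 and 2 in WT (edgeR adjusted p = 0.0346). Of 6 other SPARC family genes 2 rose (Fstl1 and Smoc2), 2 fell (Spock2 and Spock3) and 2 did not pass. Fstl1, a secreted BMP antagonist, had 950 and 814 CPM in the libraries labelled Lats1/2 KO and 144 and 134 CPM in WT. Of the other tenascins, Tnr, a tenascin of the nervous system, fell at low counts, Tnxb did not pass (44.9 and 17.3 CPM in the libraries labelled Lats1/2 KO, 98.7 and 71.0 CPM in WT) and Tnn was not tested. Tnc was thus the only one of the 3 tested tenascins that rose.

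Tgfbi, the fasciclin-domain relative of Postn, rose, as did 4 of 5 tested CCN genes, with Ctgf, a standard YAP readout, at 1226 and 1288 CPM in the libraries labelled Lats1/2 KO against 34.6 and 31.5 CPM in WT. Of 6 fibulins, matrix proteins of elastic fibres and basement membranes, 3 rose and 3 did not pass. F-spondin (Spon1) rose to 1142 and 985 CPM in the libraries labelled Lats1/2 KO, against 121 and 127 CPM in WT. Spon2, a secreted F-spondin relative, had 4.02 and 2.27 CPM in the libraries labelled Lats1/2 KO and 5.77 and 18.7 CPM in WT, and it did not pass without either library labelled Lats1/2 KO or without WT replicate 2 (adjusted p = 0.109, 0.235 and 0.318). Vwa1, a matrix protein of cartilage and nerve, fell to 7.65 and 8.26 CPM in the libraries labelled Lats1/2 KO, against 36.6 and 22.7 CPM in WT.

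Of 26 cell-surface receptors for these proteins, 16 rose, 4 fell and 6 did not pass, with a median log2 fold change of 1.11. The integrin chain Itgb5, a partner of Itgav in binding osteopontin and periostin, rose to 507 and 343 CPM in the libraries labelled Lats1/2 KO, against 50.02 and 44.05 CPM in WT. The fibronectin receptor chains Itga5 and Itgb1, the osteopontin receptor Cd44, and Itga3, a laminin receptor chain that also binds thrombospondin, rose too, Cd44 to 903 and 943 CPM in the libraries labelled Lats1/2 KO against 198 and 223 CPM in WT. The thrombospondin receptors Cd47 and Cd36 did not pass: Cd47 had 178 and 203 CPM in the libraries labelled Lats1/2 KO and 183 and 188 CPM in WT, and Cd36 had 35.6 and 29.1 CPM in the libraries labelled Lats1/2 KO and 44.0 and 30.3 CPM in WT. Itga4, a leukocyte integrin chain that binds fibronectin and osteopontin, fell to 58.4 and 32.1 CPM in the libraries labelled Lats1/2 KO, against 203 and 260 CPM in WT. Stab2, a scavenger receptor of sinusoidal endothelium, fell as well, to 5.43 and 3.24 CPM in the libraries labelled Lats1/2 KO against 63.8 and 35.7 CPM in WT. Its relative Stab1 rose, to 162 and 146 CPM in the libraries labelled Lats1/2 KO against 71.2 and 65.0 CPM in WT. All 20 listed T, NK, B and plasma cell markers fell, as did 7 of 10 endothelial markers. Whether the falls of Itga4 and Stab2 are related to those of the markers was not tested.

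Of 21 tested genes that assemble, crosslink or cleave fibronectin and matricellular proteins, 15 rose, 0 fell and 6 did not pass (median log2 fold change 1.57). Lox, which crosslinks collagen and elastin, had 619 and 528 CPM in the libraries labelled Lats1/2 KO, against 10.7 and 13.7 CPM in WT. Bmp1, a protease that processes procollagen and activates Lox, had 404 and 410 CPM in the libraries labelled Lats1/2 KO, against 22.5 and 19.8 CPM in WT. Of 15 genes of latent TGF-beta handling and TGF-beta readout, 13 rose, 1 fell and 1 did not pass (median log2 fold change 1.61). Tgfb2 had 144 and 163 CPM in the libraries labelled Lats1/2 KO, against 14.3 and 25.2 CPM in WT, and Pmepa1, a TGF-beta target, had 488 and 452 CPM in the libraries labelled Lats1/2 KO against 52.8 and 51.5 CPM in WT. The co-receptor Tgfbr3 was the gene that fell, to 68.6 and 47.8 CPM in the libraries labelled Lats1/2 KO against 147 and 111 CPM in WT. Tgfbi is among the genes that stand in both this list and the list of other matricellular genes.

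**Figure D4:**
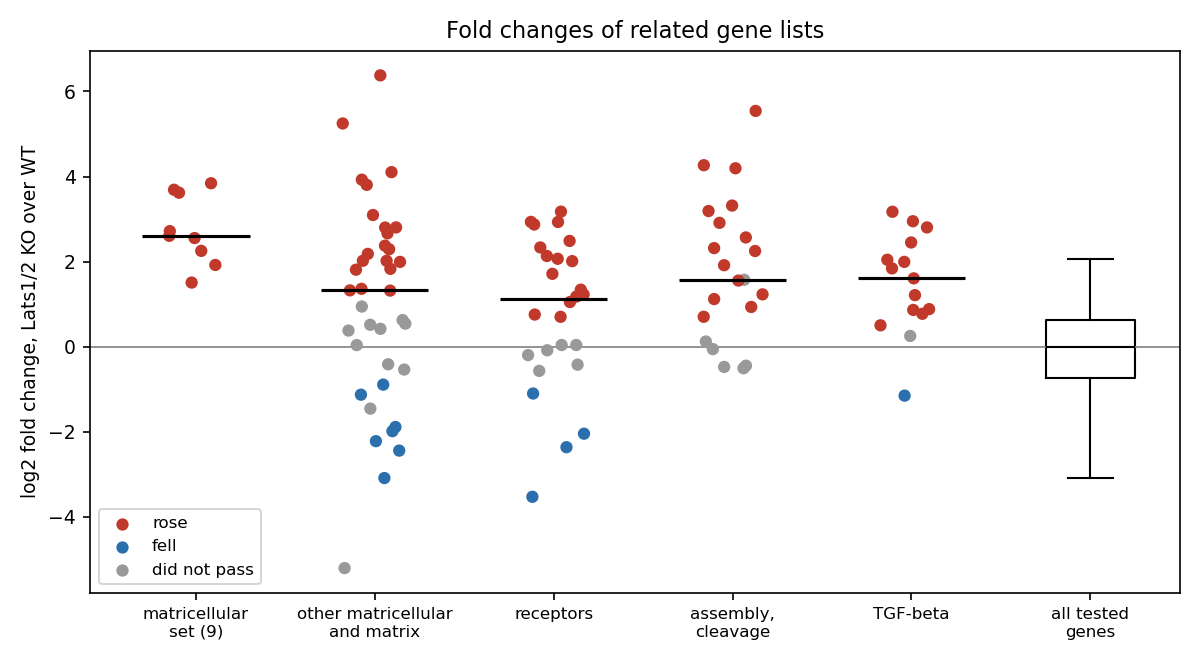
Log2 fold change (libraries labelled Lats1/2 KO over WT) of each tested gene in the 9-gene set and the 4 related lists, with lines at the medians; red genes rose, blue fell and grey did not pass. The box shows all 13990 genes tested (quartiles, whiskers from the 5th to the 95th percentile); all points of the 9-gene set are red, while the other matricellular list holds 7 blue points.

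Markers of the cell types that make these proteins moved with the groups, and in bulk RNA fewer cells of a type and less RNA per cell cannot be told apart. Of 12 duct markers, 9 rose and 1 (Car2) fell, and the list summed to 11600 and 11780 CPM in the libraries labelled Lats1/2 KO, against 1989 and 2231 CPM in WT. The defining duct markers Krt19, Krt7 and Krt8 were detected in all 4 libraries. The acinar list summed to 152 and 3664 CPM in the libraries labelled Lats1/2 KO, against 48850 and 86690 CPM in WT. Acinar RNA was thus plentiful in both WT libraries, although their label names ducts. The list had 0 rises and 2 falls among 11 tested. Its markers Cpa1, Cpb1 and Cela1 had log2 fold changes of -4.95, -5.60 and -7.81 and did not pass edgeR's test (adjusted p = 0.250, 0.224 and 0.107). They passed with DESeq2 (adjusted p = 0.0243, 0.0109 and 1.05e-07), without Lats1/2 KO replicate 1 (edgeR adjusted p = 0.0118, 0.00559 and 0.0487) and without Lats1/2 KO replicate 2 (edgeR adjusted p = 0.00398, 0.00215 and 0.0404).

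Fibroblast and stellate cell markers, known in stroma together with Fn1, Postn, Sparc, Thbs2 and Tnc, were higher: 12 of 14 rose and 0 fell. The list summed to 15370 and 9823 CPM in the libraries labelled Lats1/2 KO, against 3066 and 2682 CPM in WT, with Col1a1, Col1a2 and Col3a1 detected in all 4. Macrophage markers, which bear on Spp1 and Fn1, rose in 12 of 14 genes and fell in 1 (Ly6c2). That list summed to 7220 and 5035 CPM in the libraries labelled Lats1/2 KO, against 757 and 614.5 CPM in WT, with Adgre1, Csf1r and Cd68 detected in all 4. Of 6 tested mesothelial markers 2 rose (Msln and Wt1) and 0 fell, and the 7 listed summed to 330 and 284 CPM in the libraries labelled Lats1/2 KO, against 20.3 and 17.8 CPM in WT. The part of these lists in the rise of the 9 genes was not tested.

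Most endothelial, smooth muscle and nerve markers were lower in the libraries labelled Lats1/2 KO. Sparcl1, which such cells are known to express, was higher, and its cell source was not tested. Of 10 endothelial markers 0 rose and 7 fell, and the list summed to 1033 and 860 CPM in the libraries labelled Lats1/2 KO, against 1918 and 1781 CPM in WT. Of 10 smooth muscle and pericyte markers 1 rose (Cspg4) and 8 fell, with sums of 1852 and 1188 CPM in the libraries labelled Lats1/2 KO and 4881 and 4023 CPM in WT. Of 8 Schwann and nerve markers 0 rose and 7 fell. Of 10 islet markers 1 rose (Nkx6-1) and 4 fell, and of 4 tested neutrophil markers 2 rose and 1 fell, with Ly6g at 0 in both libraries labelled Lats1/2 KO. Of 5 tested erythroid markers 0 passed.

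**Figure D5:**
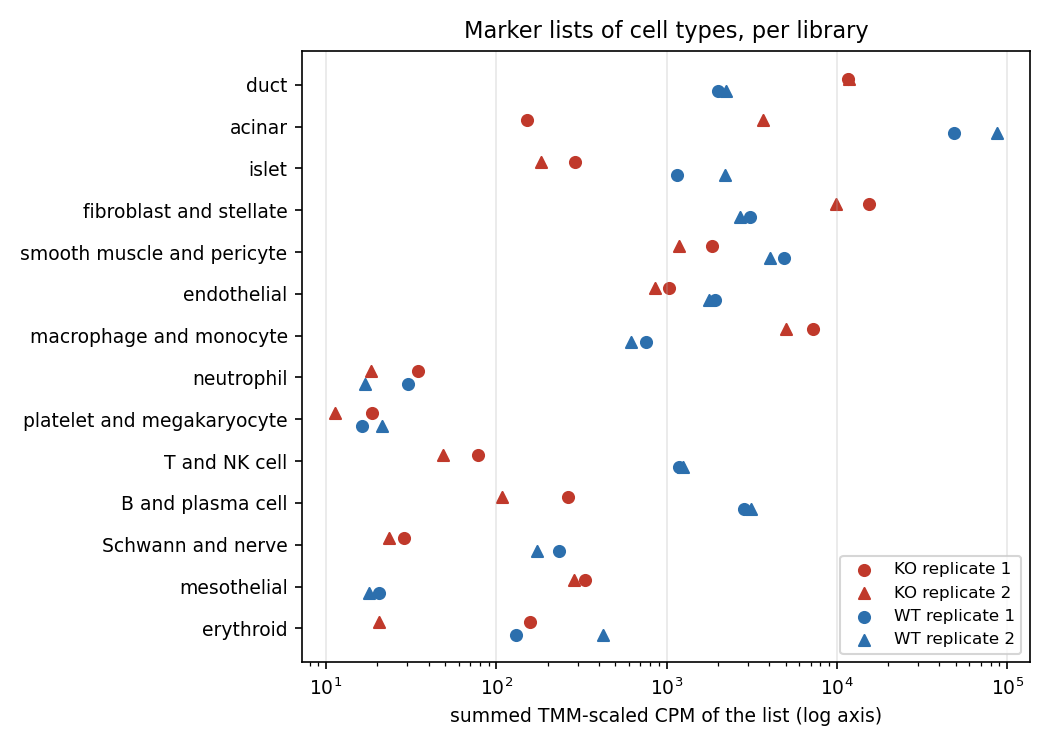
Summed TMM-scaled CPM (log axis) of each cell type's marker list per library; red marks are libraries labelled Lats1/2 KO, blue marks WT libraries, circles replicate 1 and triangles replicate 2. Duct, fibroblast, macrophage and mesothelial lists lie to the right in red, the acinar, lymphocyte, nerve, endothelial and smooth muscle lists lie to the right in blue, and the platelet list stays between 11.3 and 21.4 CPM.

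Replicates of a group also differed in these lists. Between the libraries labelled Lats1/2 KO, the ratio of replicate 1 to replicate 2 was 1.57 for the summed fibroblast list, 1.43 for the macrophage list and 0.98 for the duct list. It was 1.559 for the smooth muscle and pericyte list, 1.601 for T and NK cells and 2.43 for B and plasma cells. For the islet, endothelial and mesothelial lists it was 1.58, 1.201 and 1.162, and for the acinar list 0.0416. Only the duct and acinar lists lay under 1, so a ratio above 1 was not particular to fibroblast and macrophage markers. Over the 9 genes the same ratio ran from 0.88 (Thbs1) to 1.32 (Fn1). Fn1 and Sparc (1.30) were the members clearly higher in replicate 1, Thbs2, Thbs3 and Tnc lay between 1.05 and 1.09, and Sparcl1, Postn, Spp1 and Thbs1 were under 1. Between the WT libraries the ratio was 1.14 for the fibroblast list, 1.23 for the macrophage list and 0.89 for the duct list. For the smooth muscle and pericyte, endothelial and mesothelial lists it was 1.21, 1.08 and 1.145. Over the 9 genes it ran from 0.37 (Spp1) to 1.65 (Postn) in WT.

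For 8 of the 9 genes (all but Thbs2), the 2 genes with the most similar pattern are given. They were sought among tested genes with a mean of at least 10 CPM, without predicted models. Similarity was the distance between log2 CPM values over the 4 libraries, each gene centred on its mean. The closest match was that of Tnc with Clcn5, a chloride and proton exchanger (distance 0.0186), which had 90.2 and 85.1 CPM in the libraries labelled Lats1/2 KO and 17.6 and 18.9 CPM in WT. Fn1 lay nearest to Tlr2 (0.0476), a receptor for bacterial lipoproteins, and to Col12a1 (0.0671), a fibril-associated collagen with 918 and 699 CPM in the libraries labelled Lats1/2 KO and 69.3 and 40.5 CPM in WT. Sparcl1 lay nearest to Tnfaip1 and Bok, Postn to the laminin chain Lamb3 and to Cd300c2, and Thbs3 to Sphk1 and Smurf1. Thbs1 lay nearest to the growth factor Pdgfa (0.142) and to Ppp1r13l, and Sparc to the Wnt receptor Fzd1 and Slc35e4. The second match of Tnc was Tmc4. Spp1 had no match as close: its nearest genes were Lilrb4a, a myeloid inhibitory receptor, at 0.310 and the fibrillin Fbn2 at 0.450. No member's nearest genes were other members, whose smallest distance was 0.401 (Sparc and Postn). With 4 libraries such distances describe these libraries only.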

How the data were processed

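RNA was measured in 4 pancreas libraries labelled as ducts. Per the labels' protocols, libraries were made with a SMARTer stranded kit from 1 ug of RNA. The deposited files hold raw counts per gene model. Per the submitters' processing notes, the build was mm10 and the tools TopHat and edgeR. The sources used here name no counting program or annotation, and do not say whether strand was used or how multi-mapping reads were treated. Model coordinates, counted from 1, equalled GENCODE M21 for 94.7% of 52535 models, and union exon lengths came from that annotation.

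The main test was that of edgeR 4.0.16 in R 4.3.3 after the filterByExpr filter and TMM scaling (robust quasi-likelihood fit, genotype as the only term, 4 libraries, 2 residual degrees of freedom), with Benjamini-Hochberg adjustment over 13990 genes and a threshold of 0.05. The SE is the log2 fold change over the root of F. The procedure was tested on simulated data. Replicates differed by more than sampling noise (chi-square per degree of freedom 20.0 and 20.1 in the pairs labelled Lats1/2 KO and WT). Intervals cover counting error only. Alternatives were DESeq2 1.42.0, upper quartile, RLE and library size scaling, no filter, a replicate block and each library left out.

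The members and lists were chosen with earlier results of these data known. The text names the 9 genes, Lats1, Lats2, up to 2 rises and 2 falls per related list with at least 10 CPM in the higher group, 3 defining markers per cell type and 2 pattern neighbours per gene (pseudocount 0.5 CPM, mean of at least 10 CPM, no predicted models). Other genes of the lists were named after their values were seen. The pattern neighbours of Thbs2 are not reported here. Protein sequences were not used here.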

Additional observations from a re-analysis of the deposited data

How the results depend on the processing

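The 9 genes kept their direction under all 10 alternatives, and all but Spp1 passed under each. Spp1 lost its call without either library labelled Lats1/2 KO, with log2 fold changes of 3.16 to 4.57 over the 4 libraries left out, so 8 or 9 genes rose. The cause was not tested. Genes called lower numbered 1867 to 2276 and genes called higher 2265 to 2449 with 1 library left out, against 2832 and 3077 with all. Upper quartile scaling moved the median log2 fold change of all genes to -0.20 (from -0.01) and the percentage of called genes that were higher to 39.4% (from 52.1%), with 2339 higher and 3594 lower. Under it the 9 log2 fold changes ran from 1.31 (Sparcl1) to 3.65 (Fn1). DESeq2 and the fit without a filter moved that median to -0.14 and -0.11. With the replicate block 3466 genes were higher and 3190 lower, and 9 of the 9 genes rose. Equal replicate numbers share no stated source, and their deviations correlated at 0.0355. In the related lists, falls among other matricellular genes numbered 4 without either library labelled Lats1/2 KO (7 with all), falls among receptors 2 without Lats1/2 KO replicate 2 or WT replicate 1 (4 with all), and 1 assembly gene fell with the replicate block or without Lats1/2 KO replicate 1 (0 with all). The mesothelial marker Upk3b ranged from -0.71 to 1.88 on the log2 scale with 1 library left out. Depth limits mainly Thbs3, with 25 and 44 counts in WT, and low-count relatives such as Comp, Dmp1, Spon2 and Tnr.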

Other observations

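Sparcl1 and Spp1 lie 321 kb apart on chromosome 5, with 8 gene models overlapping or between them. Among these are Dspp, Dmp1, Ibsp and Mepe, genes of secreted phosphoproteins of bone and teeth that belong to the same protein family as osteopontin. Dmp1 (mm10, 104202613 to 104214102, plus strand), which is known from bone and dentin, had 37 and 107 counts in the libraries labelled Lats1/2 KO, against 1 and 0 in WT. Its pooled ratio was 109 (95% exact binomial interval 19.2 to 4319, counting error only), with a log2 fold change of 6.38 in the fit across all genes (edgeR adjusted p = 0.000801). At 7.45 and 17.3 CPM in the libraries labelled Lats1/2 KO it stayed far below Spp1. Dspp had 2 and 1 counts in the libraries labelled Lats1/2 KO and 0 in both WT libraries, Ibsp 0 and 2 counts in the libraries labelled Lats1/2 KO and 0 in both WT libraries, and Mepe had 0 in all 4. This stretch was examined after the values were seen. Gm26703, a model on the opposite strand that overlaps the Sparcl1 span but none of its exons, had 27 and 37 counts in the libraries labelled Lats1/2 KO, against 1 and 0 in WT.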
